A study of Homo sapiens with 2 samples.

Results

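The genes described here encode the subunits, activators and assembly factors of the proteasome. They were taken as members when their symbol was PSMA, PSMB, PSMC, PSMD, PSME, PSMF or PSMG followed by a number, or was POMP or ADRM1. Of the 50 gene names this covers, 48 were among the 11619 genes listed in the deposited values. The other 2, PSMA8, a testis subunit, and PSMB11, the thymus catalytic subunit, were not listed. A gene had to exceed 0.5 FPKM in one library or the other to be listed, so the 48 members are those that passed this filter. NB4 is an established line of human acute promyelocytic leukemia (APL) cells with the PML/RARα fusion. Both groups were NB4 cells infected with a pLVX lentiviral shRNA vector and harvested on day 3. One group carried an shRNA against the long non-coding RNA CRNDE (sh-CRNDE), and the other a non-targeting shRNA (sh-Control). There was 1 library per group, so the differences are between these libraries, without replicates and without p-values. Which CRNDE shRNA was in the sequenced cells is not given in the sources used here.

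The proteasome is the barrel-shaped protease that degrades most ubiquitin-tagged proteins of the cell. Its 20S core is a stack of alpha rings around beta rings, and catalytic beta subunits line the inner chamber. The 19S regulatory particle caps the core, binds and unfolds the substrate and removes its ubiquitin. In immune cells and under interferon, PSMB8, PSMB9 and PSMB10 can replace the constitutive catalytic subunits, and the particle is then called the immunoproteasome. Proteasome genes are known to be controlled together through the transcription factor NFE2L1.

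The unit is FPKM, fragments scaled for transcript length and for the mapped fragments of the library, so levels can be compared between genes within a library. A change is the difference in log2(FPKM + 1) between the libraries, sh-CRNDE less sh-Control, and a gene was taken to have risen or fallen when its change was past 1.5-fold, that is 0.585. Adding 1 makes the change of a gene near or below 1 FPKM smaller than the ratio of its FPKM values. CRNDE itself went from 5.92 FPKM with sh-Control to 1.85 FPKM with sh-CRNDE (-1.28). FPKM values keep no read counts, so the depth of the libraries is unknown. The promyelocytic markers MPO, PRTN3, AZU1, CTSG, CD33 and SPI1 were listed, and ELANE and KIT were not. Their summed level was 1432 FPKM with sh-Control and 832 FPKM with sh-CRNDE, all 6 were lower in sh-CRNDE, and 4 of the 6 fell past 1.5-fold, where 50.8% of all genes were lower and 8.83% fell. MPO, one of the 4, had a change of -0.62, or -0.44 after subtraction of the median change at similar GC content, which is short of 1.5-fold. Of the T cell, B cell and erythroid markers, those listed reached at most 1.16 FPKM, and the epithelial marker EPCAM was at 4.82 FPKM in sh-Control and 4.49 in sh-CRNDE. The part of these markers in the proteasome values was not tested. In bulk samples, fewer cells of a type and less RNA per cell cannot be told apart.

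As a group the proteasome genes moved little. Among all genes, 17.2% were past 1.5-fold, 8.38% having risen and 8.83% having fallen. Of the 48 members 1 rose, PSMA2, and 0 fell. The members ranged from -0.38 (PSMB10) to 0.64 (PSMA2), and the 25th and 75th percentiles lay at -0.07 and 0.17, against -0.26 and 0.23 over all genes. Their median change was 0.07, beside -0.01 over all genes, with 29 members higher and 19 lower, where 49.2% of all genes were higher. Of the 2585 genes that reached 10 FPKM in each library, 5.38% rose and 5.65% fell, with a median change of 0.03, and 54.2% were higher and 45.8% lower. Among the 42 members at that level 1 rose and 0 fell, and 27 were higher and 15 lower. The 25th and 75th percentiles were -0.06 and 0.17 for these 42 members and -0.19 and 0.23 for the 2585 genes. At a smaller threshold of 0.32, 6 of the 48 members were past it, where 39.4% of all genes were. At 10 FPKM or more in each library, 5 of the 42 members and 835 of the 2585 genes were past it. The 6 members were PSMA2, PSMA3, PSMA4, PSMC3 and PSMD12 on the higher side, where 18.6% of all genes lay, and PSMB10 on the lower side, where 20.7% lay. The summed FPKM of all members was 1471 for sh-Control and 1529 for sh-CRNDE. Of all FPKM, which summed to 141217 for sh-Control and 170373 for sh-CRNDE, the members made up 1.04% and 0.897%. With mitochondrially encoded genes left out of the total their share was 1.04% and 1.07%, so the direction depends on whether those genes are counted. The sh-CRNDE total holds a single entry of 27614 FPKM, whereas no value of sh-Control passed 3057. That entry was below 1 FPKM in sh-Control, since genes at 1 FPKM or more in each library reached at most 3149 in sh-CRNDE. The totals therefore do not show a general difference in mitochondrially encoded genes.

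**Figure D1:**
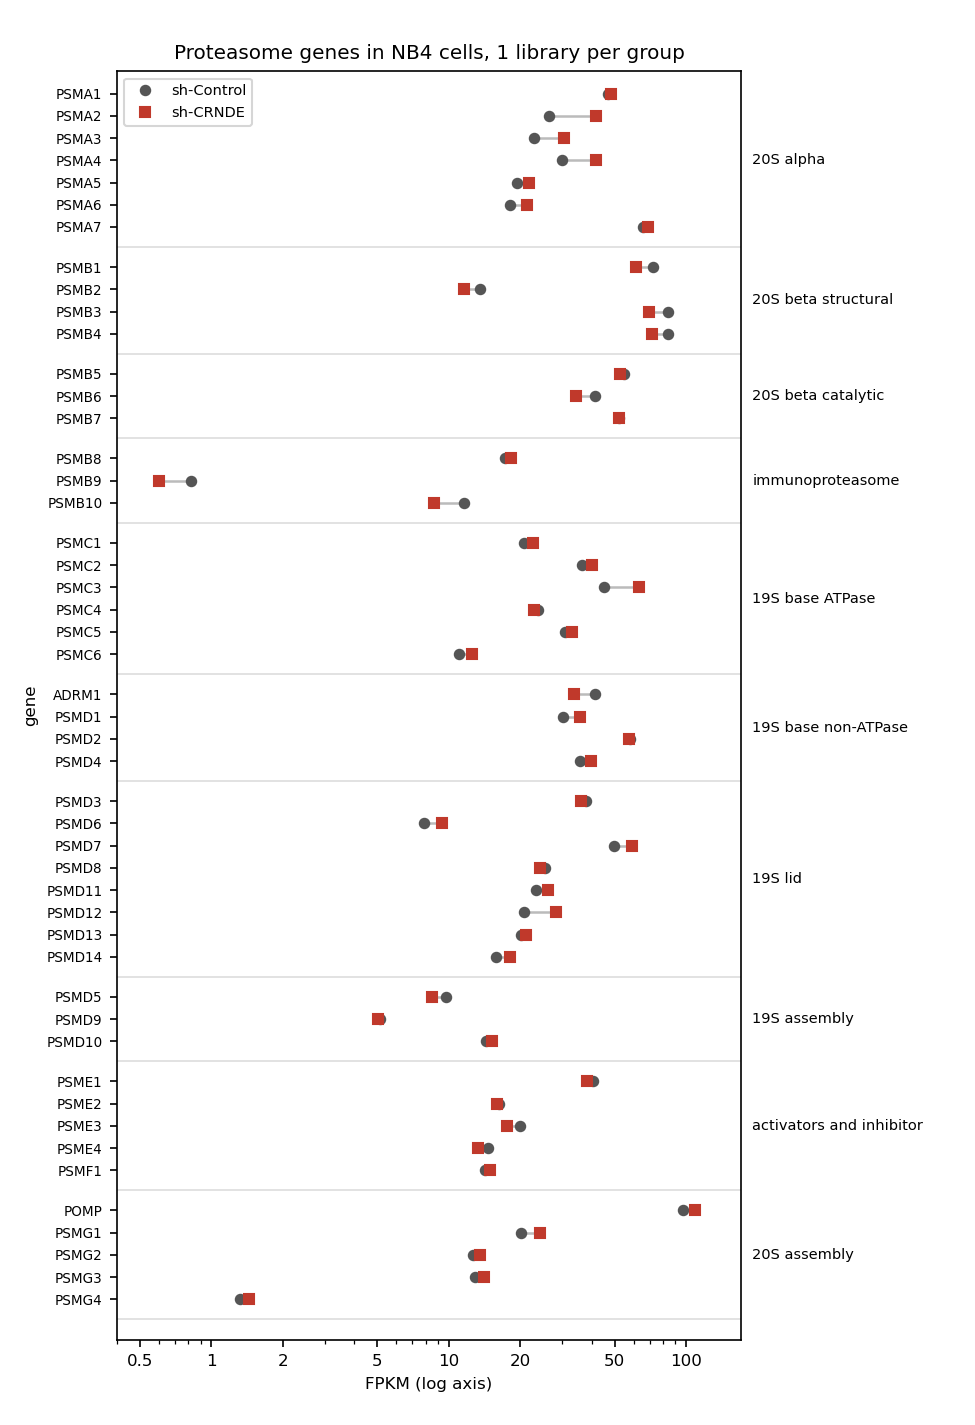
FPKM of each of the 48 listed proteasome genes on a log axis, by class, with sh-Control as grey circles and sh-CRNDE as red squares, 1 library each. POMP is highest and PSMB9 lowest in both libraries, and most pairs of points lie close together.

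The members were expressed over a wide range of levels, and the order was much the same in both libraries. POMP, the chaperone that matures the half-assembled 20S core, was the highest, at 96.8 and 109 FPKM in sh-Control and sh-CRNDE, the order used for all pairs of values here. The structural beta subunits PSMB4 (84.0 and 71.9 FPKM) and PSMB3 (83.5 and 69.4 FPKM) came next in both libraries. The lowest were PSMG4, a chaperone of alpha ring assembly, at 1.32 and 1.44 FPKM, and PSMB9, at 0.817 and 0.601 FPKM. The median member was at 23.1 and 25.3 FPKM, against 3.95 and 3.89 FPKM over all genes. In sh-Control the 18 genes of the 19S particle ran from 7.88 FPKM (PSMD6) to 57.9 FPKM (PSMD2). No interval separates neighbours in this order, since neither replicates nor counts are at hand.

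Promoter sequences of 42 of the 48 members were found in RefSeq (GRCh38.p14), each from 250 bases before to 50 after the start, that is for all but PSMA7, PSMB1, PSMB6, PSMB7, PSMD4 and PSMG3. The letters of 6 motifs were searched on both strands. The antioxidant response element, which NFE2L1 and NFE2L2 bind with a small MAF protein, was searched as TGACNNNGC and found in 14 of the 42 promoters (33.3%), against 15.6% of 7940 promoters of listed genes. None of the 6 alpha genes with a promoter sequence held it. The median change was -0.06 for the members with a match and 0.11 for the members without, which include all these alpha genes. In classes with both kinds the median was lower with a match, except in 2 classes. Each of these classes had only 1 to 3 genes with a match, and the medians were not adjusted for GC content. Some gaps were small, as in the non-ATPase genes of the 19S base, at -0.03 with and -0.01 without. The 2 exceptions were the 19S lid, at 0.18 with and 0.17 without, and the assembly genes of the core, at 0.18 with and 0.12 without. The part of the element in the changes was not tested. The core of the interferon-stimulated response element, GAAA, any pair of bases and GAAA again, was found in 6 promoters (14.3%, against 2.82%), those of PSMA4, PSMB4, PSMB10, PSME1, PSME2 and PSMG4. The CCAAT box was in 45.2% of the members' promoters and in 37.4% of those of listed genes. The GC box GGGCGG was in 66.7% and 71.2%, the ETS sequence CCGGAAGT in 19.05% and 10.15%, and the NRF1 sequence, GCGCA directly followed by TGCGC, in 2.38% and 2.54%. Only 1 pair of matches to different motifs shared bases. A match is a match of letters and no evidence of binding.

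Stretches before the start are printed for the member that rose, for the immunoproteasome gene with the lowest change, and for the members with an antioxidant response element that had the highest and the lowest change. Capitals mark the match to the motif named. The PSMA2 stretch, chr7:42932215-42932324 on the minus strand, holds a CCAAT box. It lies between PSMA2 and the mitochondrial ribosomal protein gene MRPL32, which starts 191 bases away on the other strand. MRPL32 was at 14.8 and 17.3 FPKM, a change of 0.21.
PSMA2: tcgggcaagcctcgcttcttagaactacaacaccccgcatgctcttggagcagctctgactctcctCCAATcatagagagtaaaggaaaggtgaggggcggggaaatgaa
The PSMB10 stretch, chr16:67936851-67937000 on the minus strand, holds the interferon element 21 bases before the start, and its last 14 bases are within an annotated first exon.
PSMB10: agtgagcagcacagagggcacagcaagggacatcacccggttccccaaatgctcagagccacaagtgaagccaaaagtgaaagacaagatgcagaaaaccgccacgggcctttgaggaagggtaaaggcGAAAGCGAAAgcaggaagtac
The PSMD12 stretch, chr17:67366606-67366757 on the minus strand, and the ADRM1 stretch, chr20:62302746-62302895 on the plus strand, each hold 1 antioxidant response element. No exon is annotated in either, and an alternative ADRM1 transcript has an intron there.
PSMD12: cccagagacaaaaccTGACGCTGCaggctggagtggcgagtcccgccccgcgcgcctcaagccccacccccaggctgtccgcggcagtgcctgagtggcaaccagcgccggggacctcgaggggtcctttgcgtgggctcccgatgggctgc
ADRM1: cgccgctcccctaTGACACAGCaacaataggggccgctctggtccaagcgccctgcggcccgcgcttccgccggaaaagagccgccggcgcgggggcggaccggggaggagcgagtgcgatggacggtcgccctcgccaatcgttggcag

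The alpha subunits, which form the outer rings and the gate of the core, were all higher in sh-CRNDE. All 7 listed alpha genes had a positive change, with a median of 0.23, where 49.2% of all genes were higher. PSMA2 (ENSG00000106588), whose upstream sequence with its CCAAT box is given above, rose from 26.4 to 41.7 FPKM (0.64). A higher change was found in 7.20% of all genes. PSMA2 lies on chromosome 7 from 42916828 to 42932185 on the minus strand (GRCh38) with 8 exons, and a readthrough gene that is not listed overlaps it, so reads shared by both cannot be told apart. PSMA4 went from 29.9 to 41.8 FPKM (0.47) and PSMA3 from 22.9 to 30.6 FPKM (0.40), both short of 1.5-fold. PSMA6 (18.0 and 21.3 FPKM, 0.23) and PSMA5 (19.4 and 21.8 FPKM, 0.16) differed less. The alpha genes closest to no change were PSMA7, at 65.4 and 69.0 FPKM (0.08), and PSMA1, at 46.6 and 48.0 FPKM (0.04), the same genes that were the highest of the ring in sh-Control. The spread between the alpha genes was therefore smaller in sh-CRNDE, where their coefficient of variation was 42.6%, than in sh-Control, where it was 53.0%.

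Of the 7 constitutive beta genes, 6 were lower in sh-CRNDE, by least in the catalytic genes PSMB5 and PSMB7 described below, of which PSMB7 was not lower. The structural genes PSMB1, PSMB2, PSMB3 and PSMB4 were all 4 lower in sh-CRNDE, in a narrow range from -0.26 to -0.21, where 50.8% of all genes were lower. PSMB1 went from 72.2 to 61.6 FPKM (-0.23), PSMB4 from 84.0 to 71.9 FPKM (-0.22) and PSMB2, the least abundant of them, from 13.5 to 11.5 FPKM (-0.21). PSMB3 was the lowest by change, at -0.26. None of these changes was past 1.5-fold. The summed FPKM of the 7 alpha genes was 229 in sh-Control and 274 in sh-CRNDE, and that of the 7 constitutive beta genes 401 and 354. The ratio of alpha to beta sums was 0.570 in sh-Control and 0.775 in sh-CRNDE, while the sum over the whole constitutive 20S core was 630 and 628 FPKM.

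**Figure D2:**
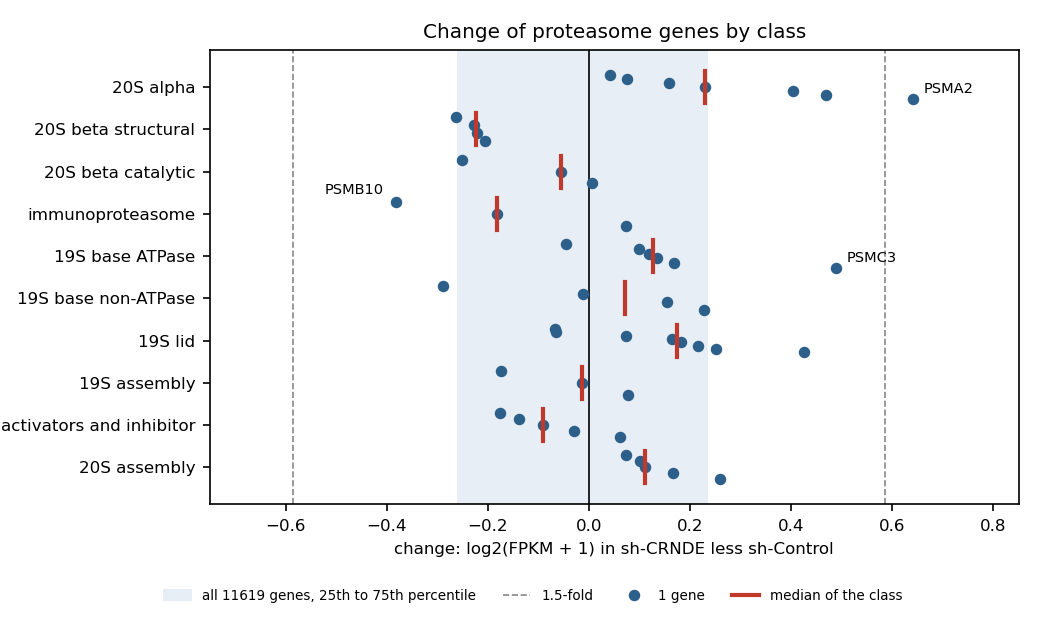
Change of each proteasome gene (blue points) in log2(FPKM + 1), sh-CRNDE less sh-Control, by class, with the class median in red. The band spans the 25th to 75th percentile of all 11619 genes and the dashed lines mark 1.5-fold, and PSMA2 alone lies beyond a dashed line.

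GC content moved with these differences. Among the genes at 1 FPKM or more in each library, the lowest quartile by GC content of the canonical transcript had a median change of 0.17 and the highest quartile a median of -0.25. The median GC content was 41.4% in the alpha genes and 52.0% in the constitutive beta genes. After subtraction of the median change at similar GC content, 5 of the 7 alpha genes were still higher, with a median of 0.15, and all 4 structural beta genes were still lower, with a median of -0.22. The 3 catalytic beta genes then had a median of -0.01, with 1 higher and 2 lower. PSMA2 was then at 0.48 and no longer past 1.5-fold, and PSMC3, at 0.63, was past it. Across the 48 members, which share both libraries, the Spearman correlation of change with GC content was -0.53 as a description. The part of GC content in the differences was not tested.

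**Figure D3:**
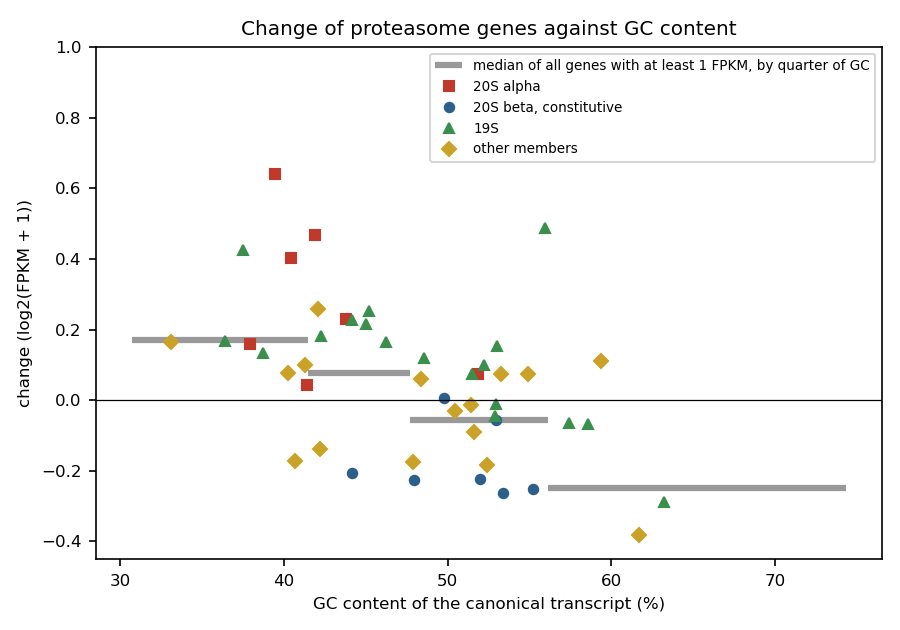
Change of each proteasome gene in log2(FPKM + 1) against the GC content of its canonical transcript in percent, with grey bars for the median of all genes at 1 FPKM or more in each library, by quartile of GC content. The alpha genes (red squares) sit mostly at low GC content and above 0, and the constitutive beta genes (blue circles) at 0.01 or below.

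The proteolytic sites of the core are carried by PSMB6 (beta1, caspase-like), PSMB7 (beta2, trypsin-like) and PSMB5 (beta5, chymotrypsin-like), the last being the main target of bortezomib. PSMB7 was at 52.1 and 52.3 FPKM and PSMB5 at 54.7 and 52.6 FPKM, changes of 0.01 and -0.06. PSMB6 was lower in sh-CRNDE, at 41.2 and 34.4 FPKM (-0.25). After the subtraction for GC content PSMB6 was at -0.11, PSMB7 at -0.01 and PSMB5 at 0.01. Their interferon-inducible replacements were expressed at lower and very unequal levels. PSMB8 (beta5i) was at 17.2 and 18.2 FPKM, a change of 0.07, and PSMB10 (beta2i), the immune subunit gene with the interferon element shown above, at 11.6 and 8.68 FPKM, a change of -0.38. PSMB9 (beta1i) was near the lower limit of the listed genes in both libraries, at 0.817 and 0.601 FPKM, a change of -0.18. The level of PSMB8 was 31.5% of that of PSMB5 in sh-Control and 34.6% in sh-CRNDE. PSMB10 was at 22.3% and 16.6% of PSMB7, and PSMB9 at 1.98% and 1.74% of PSMB6. The immunoproteasome subunits together came to 29.7 and 27.5 FPKM, which was 20.1% and 19.7% of the sum of the constitutive catalytic subunits. The sums were close while the single pairs differed in direction, PSMB8 being higher relative to PSMB5 in sh-CRNDE and PSMB10 lower relative to PSMB7. PSMB10 had the lowest change of all members and a GC content of 61.7%. With 0.01 added to the FPKM in place of 1, PSMB9 was lower than PSMB10, at -0.44 against -0.42. The change of PSMB10 was -0.12 after the subtraction for GC content, where PSMD5 was lowest at -0.30.

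**Figure D4:**
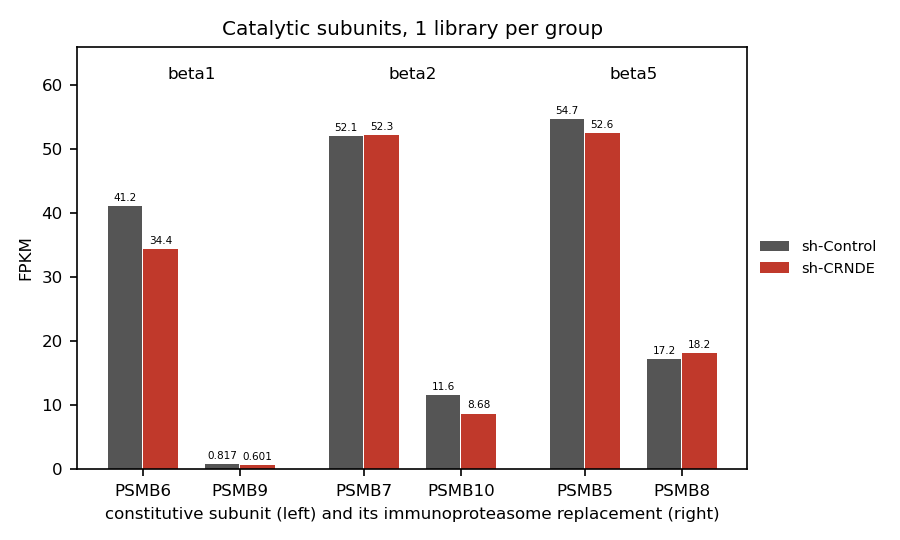
FPKM of the constitutive catalytic subunits and of their immunoproteasome replacements, paired by site, with sh-Control in grey and sh-CRNDE in red, 1 library each. PSMB8 and PSMB10 stay far below PSMB5 and PSMB7, and PSMB9 is under 1 FPKM in both libraries.

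Class I antigen presentation loads the peptides that the immunoproteasome makes. TAP1, the peptide transporter subunit whose gene lies within the annotated span of PSMB9 on the other strand, was at 1.72 and 1.84 FPKM (0.06). Of 12 class I genes and their regulators listed out of 13, 0 rose and 2 fell, where 8.38% and 8.83% of all genes did, HLA-E, from 28.3 to 14.5 FPKM (-0.92), and IRF1, from 2.47 to 1.01 FPKM (-0.79). IRF1 is an interferon-responsive activator of PSMB8, PSMB9 and TAP1. The median change of the 12 genes was 0.07. TAP2 was at 2.64 and 4.28 FPKM (0.54), short of 1.5-fold. It was past it with either smaller pseudocount, after rescaling to TPM and after subtraction of the median change at similar level. TAPBP was at 7.16 and 10.4 FPKM (0.48), and was past 1.5-fold only after the subtraction for GC content (0.65). PSMB9 overlaps PSMB8, TAP1 and PSMB8-AS1 on chromosome 6, and PSMB8-AS1 also overlaps PSMB8, and the kit used does not mark strand, so that reads of the overlapping parts cannot be told apart.

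Of the 18 genes of the 19S particle, 13 were higher in sh-CRNDE and 5 lower, with a median change of 0.14, and 0 were past 1.5-fold. Over all genes 49.2% were higher and 17.2% were past 1.5-fold. Its base holds the ring of ATPases that unfolds the substrate and threads it into the core. Of the 6 ATPase genes, PSMC3 had the highest change, 0.49, with 44.9 and 63.3 FPKM, and only PSMA2 was higher among all members. Its GC content was 56.0%. PSMC6 was at 11.1 and 12.6 FPKM (0.17), PSMC2 at 36.5 and 40.2 FPKM (0.13) and PSMC1 at 20.7 and 22.5 FPKM (0.12). PSMC5 had values of 30.7 and 33.0 FPKM (0.10), and PSMC4, at 23.6 and 22.9 FPKM (-0.04), was the only ATPase gene that was lower. After the subtraction for GC content PSMC4 was at 0.02, and PSMC2 and PSMC6 were lower, at -0.03 each.

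The base also carries the large scaffolds and the ubiquitin receptors. PSMD2, a scaffold at 57.9 and 57.4 FPKM, had a change of -0.01. PSMD1, its partner scaffold, was at 30.2 and 35.5 FPKM (0.23). The ubiquitin receptors differed in direction. PSMD4 was at 35.5 and 39.6 FPKM (0.15), and ADRM1, which also recruits the deubiquitinase UCHL5, at 41.4 and 33.7 FPKM (-0.29), the second lowest change of all members. ADRM1 had the highest GC content of the members, 63.2%, and its change was -0.03 after the same subtraction for GC content.

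In the lid, which removes ubiquitin from the substrate, 6 of 8 genes were higher, where 49.2% of all genes were, and the median change was 0.17. PSMD12 was the highest by change, with 20.7 and 28.2 FPKM (0.43). PSMD7 (49.6 and 59.2 FPKM, 0.25) and PSMD14 (15.8 and 18.1 FPKM, 0.18) encode the pair that forms the deubiquitinating centre of the lid. PSMD6 was at 7.88 and 9.31 FPKM (0.22), PSMD11, a lid scaffold, at 23.3 and 26.3 FPKM (0.17), and PSMD13 at 20.1 and 21.2 FPKM (0.07). The exceptions were PSMD3, at 37.9 and 36.2 FPKM (-0.07), and PSMD8, at 25.3 and 24.2 FPKM (-0.06), which had the highest GC contents of the lid genes. After the subtraction for GC content all 8 lid genes were higher, with a median of 0.11. The smallest lid protein is encoded by SEM1, which the deposited values list under its older symbol SHFM1 and which the rule for members does not cover. It rose from 3.78 to 7.29 FPKM, a change of 0.79, and stayed past 1.5-fold after the subtraction for GC content (0.68).

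The genes for assembly of the core were all 5 higher in sh-CRNDE by small amounts, with a median change of 0.11, where 49.2% of all genes were higher. After the subtraction for GC content 3 of the 5 were higher, and POMP and PSMG2 were at -0.03 each. PSMG1 was at 20.1 and 24.2 FPKM (0.26), POMP had a change of 0.17, and PSMG2, the partner of PSMG1, was at 12.6 and 13.6 FPKM (0.10). PSMG3 was at 12.9 and 14.0 FPKM (0.11), and its partner PSMG4 had a change of 0.07. The chaperones of the 19S base had no common direction, with PSMD5 at 9.71 and 8.49 FPKM (-0.17), PSMD9 at 5.11 and 5.05 FPKM (-0.01) and PSMD10, also known as gankyrin, at 14.3 and 15.2 FPKM (0.08). Of the 5 activators and inhibitor, 4 were lower, where 50.8% of all genes were, and 3 after the subtraction for GC content. PSME1 and PSME2, which form the interferon-inducible PA28 ring, were at 40.5 and 38 FPKM (-0.09) and at 16.3 and 15.9 FPKM (-0.03). The nuclear activators PSME3, at 19.9 and 17.5 FPKM (-0.18), and PSME4, at 14.6 and 13.2 FPKM (-0.14), were lower as well, and PSMF1, an inhibitor and transport factor of the core, was at 14.3 and 14.9 FPKM (0.06).

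Genes that work with the proteasome but lie outside the rule were looked at as lists. Of 16 proteasome-associated genes, 13 were higher and 3 lower, with a median change of 0.20, where 49.2% of all genes were higher. SHFM1 was the only one past 1.5-fold, where 17.2% of all genes were. The deubiquitinases UCHL5 and USP14 were at 13.8 and 17 FPKM (0.28) and at 10.7 and 11.7 FPKM (0.11), and the 19S chaperone PAAF1 at 3.0 and 3.58 FPKM (0.19). After the subtraction for GC content UCHL5 was at 0.08, USP14 at -0.05 and PAAF1 at 0.11. Among 10 listed regulators of proteasome genes, out of 11, 2 rose and 1 fell, where 8.38% and 8.83% of all genes did. NFE2L1, the main activator when proteasome activity is short, was at 10.9 and 13.8 FPKM (0.31). NFE2L2, its relative in the oxidative stress response, rose from 6.07 to 11.5 FPKM (0.83), and KEAP1, which keeps NFE2L2 low, was at 44.9 and 29.6 FPKM, a change of -0.5846 just short of the threshold, and was past it with either smaller pseudocount, after quantile normalization, after rescaling to TPM and after subtraction of the median change at similar level. The small MAF genes, whose proteins pair with both factors on DNA, were far apart, with MAFG rising from 1.64 to 12.4 FPKM (2.34) and MAFK falling from 12.2 to 5.15 FPKM (-1.10). After the subtraction for GC content MAFG, MAFK and NFE2L2 were still past 1.5-fold, and KEAP1 was at -0.36.

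**Figure D5:**
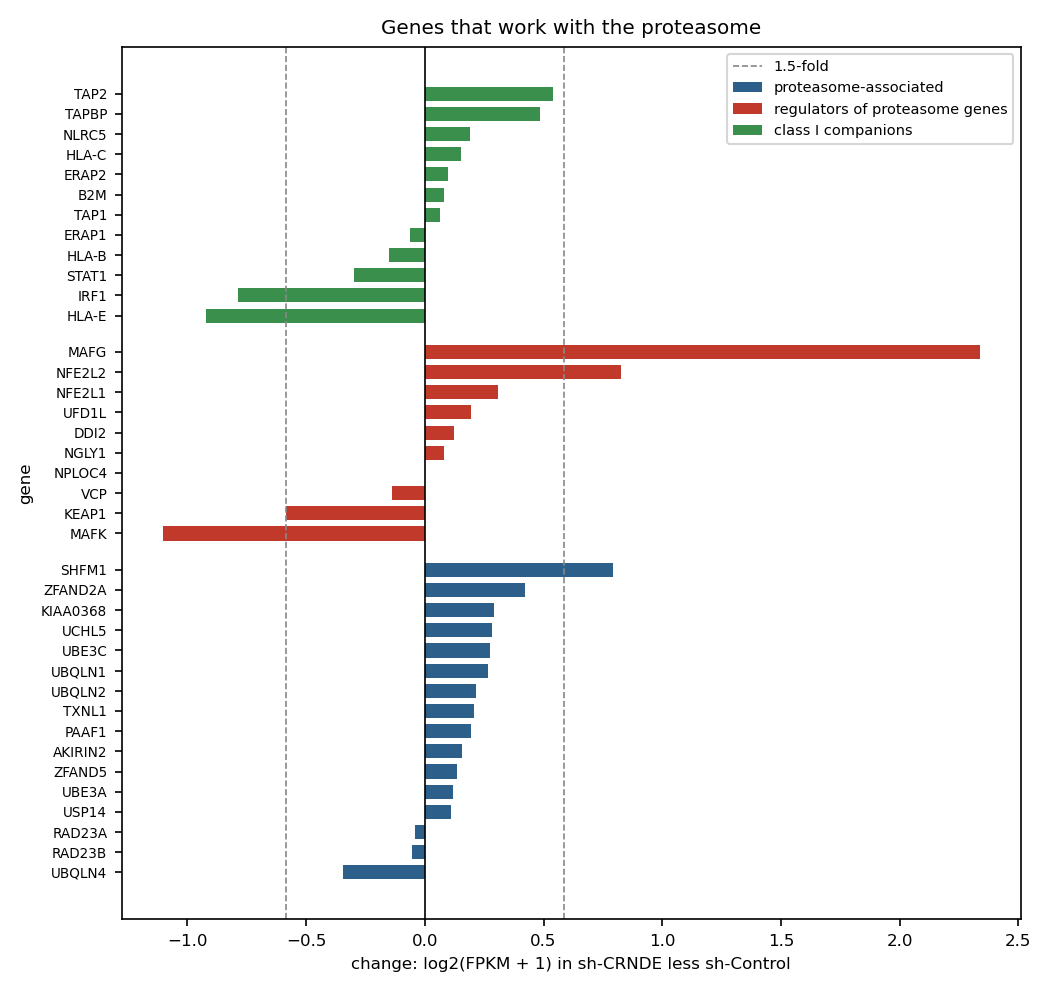
Change in log2(FPKM + 1), sh-CRNDE less sh-Control, of the listed proteasome-associated genes, regulators and class I genes, 1 bar a gene, coloured by list, with dashed lines at 1.5-fold. MAFG, NFE2L2 and SHFM1 extend past the line on the right, and MAFK, HLA-E and IRF1 past the line on the left.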

How the data were processed

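RNA of NB4 cells with sh-CRNDE or sh-Control was prepared with the Illumina TruSeq kit v2 and sequenced on a MiSeq, 1 library per group. The authors deposited FPKM values per gene. The submitters' processing notes name fastp 0.20.0, HISAT2 2.0.4 and StringTie 1.2.3 with GRCh38. Genes were joined by Ensembl identifier and grouped by their labels. The study's pseudocount of 1 and threshold of 1.5-fold were used, on all genes without further scaling. The lower background used genes that reached 10 FPKM in each library. Position was that of the whole gene in GENCODE release 44 (GRCh38), and length and GC content were those of its canonical transcript. All 48 members and 11508 of the 11619 genes were matched to it. Depth is unknown, and no interval or test was possible. Multi-copy reads cannot be traced: GENCODE names 45 pseudogenes after 18 of the members, and 0 of them are listed. Where RefSeq gave several starts for a gene, the first was used. The members, lists and motifs were chosen with earlier results of these data known. Named genes are all members, the members of the other lists past 1.5-fold, and TAP1, NFE2L1, USP14, UCHL5 and PAAF1. KEAP1, TAP2 and TAPBP were named after their values were seen. A further list, of ubiquitin genes, is not reported here. The computation was tested on simulated data and done in Python 3.11.15 with numpy 2.4.6, pandas 2.3.3, scipy 1.17.1 and matplotlib 3.10.9.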

Additional observations from a re-analysis of the deposited data

How the results depend on the processing

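Pseudocounts of 0.1 and 0.01, centring, quantile normalization, rescaling to TPM, subtraction of the median of genes of similar level or of similar GC content, and a filter at 1 FPKM were tried. The median change of the members stayed between 0.03 and 0.08. The count of members past 1.5-fold remained 1 under these settings, but the subtraction for GC content replaced PSMA2 by PSMC3. Past 2-fold the count was 0 and past 0.32 on the log2 scale it was 6. The structural beta genes were all lower in 8 of 8 settings and the alpha genes all higher in 6 of 8, the exceptions being the subtractions for level and for GC content. The subtraction for GC content changed the sign of 15 of the 48 members. The median of the immunoproteasome genes, -0.18 as reported, was -0.39 with a pseudocount of 0.1, -0.42 with 0.01 and -0.38 after rescaling to TPM. It was -0.12 after the subtraction for GC content, and why was not tested. This median rests largely on PSMB9, which was below 1 FPKM in both libraries. The change of PSMB9, -0.18 as reported, was -0.39, -0.44 and -0.38 with 0.1, 0.01 and TPM in turn. That of PSMB10, -0.38 as reported, was -0.42 under each of these. No paired analysis was possible because each group has 1 library, and for the same reason no library could be left out. Low genes such as PSMB9 and PSMG4 are the least certain, as their read numbers are unknown.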

Other observations

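Antisense genes named after members were low in both libraries. PSMD5-AS1 rose from 0.405 to 1.2 FPKM (0.65), while PSMD5 had a change of -0.17. PSMB8-AS1 was at 0.671 and 1.21 FPKM (0.40) and PSMA3-AS1 at 0.830 and 1.23 FPKM (0.29). The kit does not mark strand, so reads of a member and of an antisense gene that overlaps it cannot be told apart. DNAJC2, a ribosome-associated chaperone that overlaps PSMC2 on the other strand, rose from 13.3 to 21.5 FPKM (0.66), while PSMC2 had a change of 0.13. The gene ENSG00000259529, which overlaps PSME2 on the other strand, had 0.771 FPKM with sh-Control and was listed at 0 with sh-CRNDE. It and DNAJC2 were named after their values were seen, and together with PSMD5-AS1 they are the 3 overlapping genes past 1.5-fold. This holds with 1 added to the FPKM. In FPKM itself PSMB8-AS1 (ratio 1.80) also differed by more than 1.5-fold. So did ENSG00000226332, which overlaps ADRM1 and went from 0.840 to 0.383 FPKM (-0.41).

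Of the members, 6 share a start region head to head with a protein-coding gene on the other strand. Head to head means that the partner starts within 1000 bases before the member's start and runs away from it. Starts here are the outer ends of the annotated genes, which can differ from the start of the canonical transcript. Genes on the other strand that start inside a member were not counted. All 6 partners are listed. These are PSMA1 with PDE3B (0.25), PSMA2 with MRPL32 (0.21), PSMA7 with SS18L1 (-0.06), PSMB1 with TBP (-0.06), PSMD13 with SIRT3 (0.12) and PSMD10 with ATG4A (0.22), each given with the change of the partner. None of the 6 partners was past 1.5-fold, where 17.2% of all genes were, and their median change was 0.17.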
